A study of Mus musculus with 10 samples.

Results

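Retinol and retinoic acid enzymes were examined in the livers of germ-free (GF) mice given gut microbiota-derived extracellular vesicles (MEV). The 10 genes are *Adh1*, *Adh4*, *Adh7*, *Rdh5* and *Rdh9*, which encode oxidising enzymes for retinol, *Rdh11* and *Dhrs3*, which encode enzymes that reduce retinal, *Aldh1a1* and *Aldh1a7*, which encode aldehyde dehydrogenases, and *Cyp26a1*, which encodes an enzyme that clears retinoic acid. They were picked by name from the 12148 genes of the count table, with their difference between the groups in these livers already known. All 10 were among the 12147 genes that reached 20 counts summed over the livers. Because the difference between the groups had a part in choosing them, their values are a description and no p-value is given for them.

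The mice were wild-type, germ-free C57BL6 animals, so neither group carried a gut microbiota of its own. One group received 80 μg of MEV in PBS by mouth (GF+MEV, n = 5 mice), and the other received PBS alone (GF+PBS, n = 5 mice), both 2 times per week for 3 weeks. The vesicles were isolated from the caecal content and stool of control mice that carried a microbiota. Whole liver was taken from each mouse, and 1 RNA library per mouse was sequenced, in 1 experiment. The age and sex of the germ-free mice are not given in the sources used here.

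Vitamin A circulates as retinol and is stored in the liver as retinyl esters, mostly in stellate cells. Retinol is oxidised reversibly to retinal by alcohol dehydrogenases and by short-chain dehydrogenases, and retinal is oxidised irreversibly to retinoic acid by retinal dehydrogenases. Retinoic acid binds nuclear receptors that sit on paired core motifs in DNA, and among the genes it induces are *Cyp26a1*, whose product degrades it, and *Dhrs3*, whose product returns retinal to retinol. Hepatocytes express most of these enzymes and also use alcohol and aldehyde dehydrogenases on ethanol and other alcohols and aldehydes.

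3 promoter stretches are shown because they set the genes apart in sequence. In the windows searched, *Cyp26a1* is the only one of the 10 genes with a match to a DR5, a pair of receptor core motifs spaced by 5 bases that retinoic acid receptors bind. The second of the 2 *Aldh1a1* windows shares a stretch of identical bases with the *Aldh1a7* window. The sequences come from RefSeq windows of build GRCm38.p6 that run from 250 bases before to 50 bases after a gene's start, and all 10 genes had at least 1 window. Each is written in the direction of its gene. Capitals mark the DR5 match in *Cyp26a1* (chr19:37697698-37697797, plus strand), and in *Aldh1a1* (chr19:20601848-20601957, plus strand) and *Aldh1a7* (chr19:20727567-20727676, minus strand) the longest run of bases that are the same in both.
Cyp26a1: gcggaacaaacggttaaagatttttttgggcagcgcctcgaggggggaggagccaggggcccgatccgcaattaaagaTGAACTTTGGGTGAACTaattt
Aldh1a1: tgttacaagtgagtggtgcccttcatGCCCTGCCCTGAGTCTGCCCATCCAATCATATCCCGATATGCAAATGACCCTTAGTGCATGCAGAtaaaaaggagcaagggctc
Aldh1a7: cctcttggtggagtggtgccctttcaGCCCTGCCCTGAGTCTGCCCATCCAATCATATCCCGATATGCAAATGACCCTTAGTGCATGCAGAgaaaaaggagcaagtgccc

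In the *Cyp26a1* window the DR5 match lies on the strand opposite to the gene, where it reads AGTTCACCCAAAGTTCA, from 32 to 16 bases before the RefSeq start. The search took as core motif AGGTCA or AGTTCA, and the forms of both that open with G, on both strands. A DR5 occurred in 32 of 32851 promoter windows (0.0974%), a DR2, with a spacing of 2 bases, in 0.268% and a DR1, with a spacing of 1 base, in 0.222%, and none of the other 9 genes held any of the 3. The single core motif AGGTCA, held by 16.3% of all windows, occurred 2 times before *Adh4* and once each before *Rdh9* and *Rdh11*. Over the 120 bases before the start, the second of the *Aldh1a1* windows and the *Aldh1a7* window had the same base at 105 positions (87.5%), with an unbroken run of 65 bases. The first *Aldh1a1* window had the same base as *Aldh1a7* at 35 positions (29.2%), with a longest run of 6 bases. The second window was shown because it matched better. These matches are letters in a window, and binding was not measured.

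Library sizes were alike in the groups, with 15746119 to 20523649 counts on genes in GF+MEV livers and 16140770 to 19733387 in GF+PBS livers. Levels are given as CPM, the count of a gene relative to the library total after TMM scaling by edgeR. GF+MEV replicate 2 stood apart, with 8.52% of its counts on ribosomal RNA genes against 0.142% to 0.377% in the other 9 livers, and a TMM factor of 0.890. Among the GF+PBS livers, replicates 1 and 3 and replicates 4 and 5 were closest to each other, with a chi-square per gene between their counts of 6.36 and 7.201, where counting error alone gives about 1, and where the other pairs of GF+PBS livers lay between 8.57 and 25.0. No source says why these pairs were alike, and results without replicate 2, and with the alike livers summed, are given below. The fits treat the 5 mice of a group as independent.

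All 10 genes were lower on average in GF+MEV than in GF+PBS livers. The ratio of the means ranged from 0.606 for *Cyp26a1* to 0.899 for *Rdh11*, and the median log2 fold change of GF+MEV over GF+PBS (log2FC, given below with its standard error, SE) was -0.30 over the 10 genes, beside -0.0037 over all genes tested. In 5 genes, *Adh1*, *Adh4*, *Adh7*, *Dhrs3* and *Aldh1a1*, every GF+MEV liver lay below every GF+PBS liver, and the same 5 passed the threshold of 0.05 on edgeR's adjusted p in the fit over all genes. In that fit 7.64% of all genes passed in either direction, 3.52% as lower and 4.12% as higher. Of all genes, 3.45% had every GF+MEV liver below every GF+PBS liver and 3.94% had every one above. Nothing is read from the comparison of 5 in 10 with these shares, since the genes were chosen on this contrast. The liver holds several cell types, and in whole tissue fewer cells of a type and less RNA per cell cannot be told apart.

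**Figure D1:**
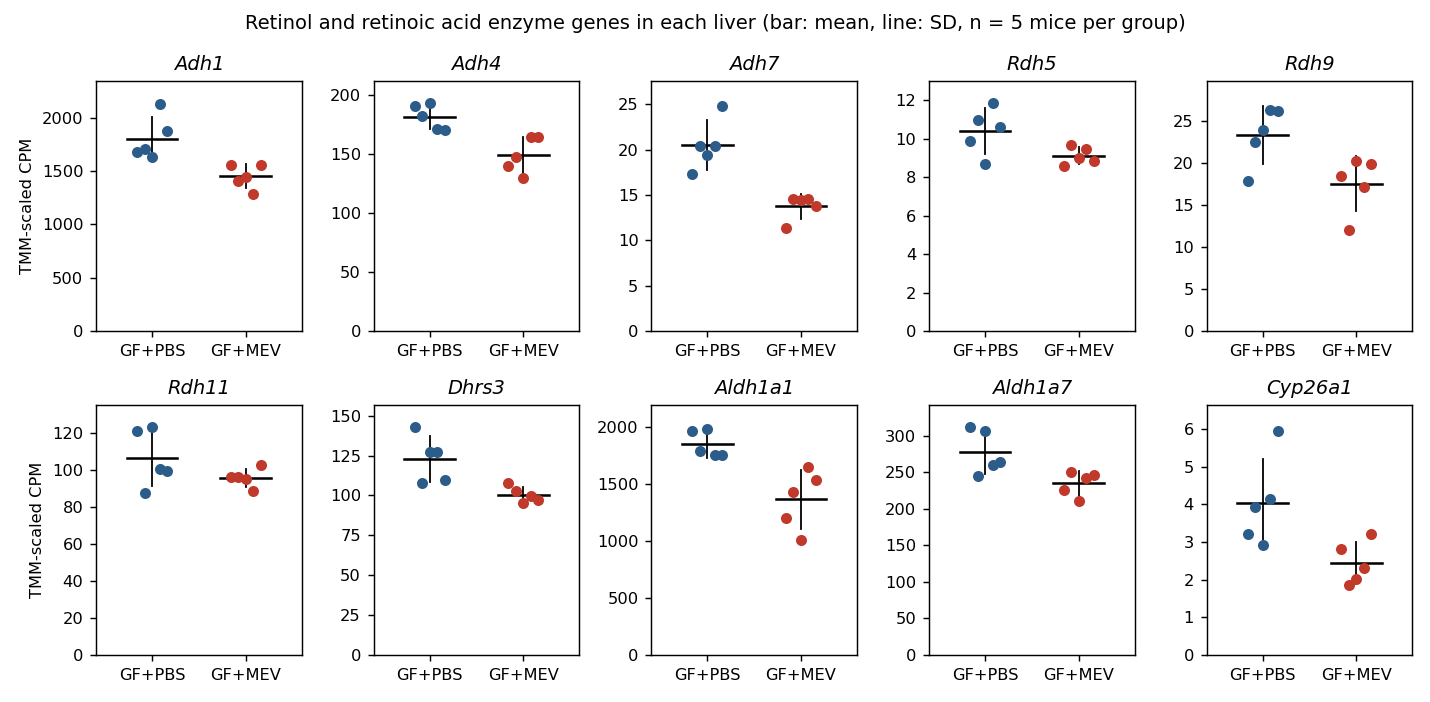
Expression of the 10 genes in each liver, in TMM-scaled CPM on axes that start at 0, with GF+PBS mice in blue and GF+MEV mice in red, the mean as a bar and the SD as a line (n = 5 mice per group). The red points lie wholly below the blue points for *Adh1*, *Adh4*, *Adh7*, *Dhrs3* and *Aldh1a1*, and the groups overlap in the other 5 genes.

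*Adh1* (ENSMUSG00000074207, chromosome 3 of GRCm38 from 138260991 to 138290698) encodes the abundant alcohol dehydrogenase of hepatocytes, which takes both ethanol and retinol. It was at 1553, 1403, 1443, 1287 and 1555 CPM in GF+MEV replicates 1 to 5 and at 1675, 1707, 1629, 2127 and 1874 CPM in GF+PBS replicates 1 to 5. The groups did not overlap, with GF+PBS replicate 4 the highest liver and GF+MEV replicate 4 the lowest. The means were 1448 ± 112 CPM and 1802 ± 203 CPM (SD, n = 5 each), a log2FC of -0.32 ± 0.09 (SE).

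*Adh4* (ENSMUSG00000037797, chromosome 3 from 138415466 to 138430892) encodes another liver alcohol dehydrogenase with activity on retinol. Its level was 139.6, 148, 129.97, 164 and 165 CPM in GF+MEV livers and 190.2, 183, 193, 171 and 170.4 CPM in GF+PBS livers. The gap between the groups was narrow, since GF+MEV replicates 4 and 5 lay just under GF+PBS replicates 4 and 5. The means of 149 ± 15.2 and 181 ± 10.4 CPM (SD, n = 5 each) gave a log2FC of -0.28 ± 0.08 (SE).

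*Adh7* (ENSMUSG00000055301, chromosome 3 from 138217760 to 138233382) encodes a retinol-active alcohol dehydrogenase best known from the stomach and other epithelia. It was found at 11.4, 14.6, 14.4, 14.5 and 13.8 CPM in GF+MEV livers and at 17.4, 20.45, 19.5, 20.4 and 24.9 CPM in GF+PBS livers. It had the widest relative gap of the 5 genes whose groups did not overlap, with means of 13.8 ± 1.36 and 20.51 ± 2.73 CPM (SD, n = 5 each) and a log2FC of -0.57 ± 0.11 (SE). The counts behind these values ran from 187 to 414 per library.

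The 3 alcohol dehydrogenase genes lie in 1 cluster on the same strand of chromosome 3, together with *Adh5*, which encodes the glutathione-dependent formaldehyde dehydrogenase present in all cells. *Adh5* (chromosome 3 from 138443093 to 138455499) was at 390.2 ± 18.6 CPM in GF+MEV and 399 ± 22.1 CPM in GF+PBS livers (SD, n = 5 each), which gave a log2FC of -0.03 ± 0.05 (SE; edgeR adjusted p = 0.808). Its neighbours in the cluster, *Adh6a* and *Adh6b*, were not listed in the table. Part of the *Adh1* and *Adh7* exons overlaps a gene on the other strand, *Gm16559* and *0610031O16Rik* respectively, and the strand setting of the counting is not stated in the sources used here.

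*Rdh5* (ENSMUSG00000025350, chromosome 10 from 128913593 to 128922888) encodes 11-cis-retinol dehydrogenase, known from the visual cycle. It was at 8.60, 9.66, 8.98, 9.49 and 8.87 CPM in GF+MEV livers and at 9.88, 10.98, 8.69, 11.9 and 10.6 CPM in GF+PBS livers. The groups overlapped through GF+PBS replicate 3, and the difference did not pass the threshold (means 9.12 ± 0.441 and 10.4 ± 1.20 CPM, SD, n = 5 each, log2FC -0.19 ± 0.08 (SE)). Its exons overlap those of *Bloc1s1* on the same strand, and 16.3% of the 50-base windows of its transcript also occur in that gene.

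*Rdh9* (ENSMUSG00000056148, chromosome 10 from 127776386 to 127792697) belongs to a family of short-chain dehydrogenases that act on retinol and on steroids. It was at 18.4, 12.1, 20.2, 17.2 and 19.9 CPM in GF+MEV livers and at 17.9, 22.5, 24.0, 26.3 and 26.2 CPM in GF+PBS livers, with GF+PBS replicate 1 inside the GF+MEV range. The means were 17.6 ± 3.30 and 23.4 ± 3.44 CPM (SD, n = 5 each) and the log2FC was -0.41 ± 0.17 (SE), which did not pass the threshold. The count of *Rdh9* is uncertain, because 92.3% of the 50-base windows of its transcript also occur in other genes, chiefly the overlapping *Rdh16f1*, so that reads of these genes can be shared.

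Other genes of the same family lie beside *Rdh9* on chromosome 10. *Rdh7* was at 1532 ± 29.5 CPM in GF+MEV and 1557 ± 56.8 CPM in GF+PBS livers (SD, n = 5 each, log2FC -0.02, edgeR adjusted p = 0.853), and *Rdh16* had a log2 fold change of 0.003. *Rdh16f2* was lower in GF+MEV livers, at 118, 84.4, 99.1, 95.8 and 117 CPM against 144, 117, 135, 141 and 135 CPM in GF+PBS livers, which gave a log2FC of -0.39 ± 0.10 (SE; edgeR adjusted p = 0.0158). With the alike GF+PBS livers summed the adjusted p of *Rdh16f2* was 0.0945, in a range of 0.0019 to 0.0945 over 18 alternatives. *Rdh16f2* passed the threshold while *Rdh9*, with a log2FC of -0.41 ± 0.17 (SE), did not. Whether the genes of this stretch differ from each other was not tested, and 10.03% of the *Rdh16f2* windows are shared with family members.

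*Rdh11* (ENSMUSG00000066441, chromosome 12 from 79174337 to 79192293) encodes a retinal reductase of the endoplasmic reticulum. Its level was 95.8, 95.9, 94.9, 88.5 and 102 CPM in GF+MEV livers and 121, 87.3, 123, 100.5 and 99.4 CPM in GF+PBS livers. Only the alike GF+PBS replicates 1 and 3 stood above the GF+MEV range, and the difference did not pass the threshold (means 95.5 ± 4.90 and 106 ± 15.3 CPM, SD, n = 5 each, log2FC -0.15 ± 0.10, SE).

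*Dhrs3* (ENSMUSG00000066026, chromosome 4 from 144892827 to 144928209) encodes the retinal reductase that limits the supply of retinal for retinoic acid. It was at 108, 103, 95.2, 99.7 and 97.1 CPM in GF+MEV livers and at 143, 108, 127, 127 and 109.6 CPM in GF+PBS livers. The groups met at GF+MEV replicate 1 and GF+PBS replicate 2, which were the same to 3 digits but in the order of the groups. Means of 100.4 ± 4.89 and 123 ± 14.5 CPM (SD, n = 5 each) gave a log2FC of -0.29 ± 0.08 (SE).

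*Aldh1a1* (ENSMUSG00000053279, chromosome 19 from 20492715 to 20643465) encodes the main retinal dehydrogenase of the adult liver, and its counts ran from 19611 to 35294 per library. It was at 1196, 1425, 1007, 1649.9 and 1531 CPM in GF+MEV livers and at 1959.7, 1783, 1980.1, 1749 and 1749 CPM in GF+PBS livers. The GF+MEV livers were spread more widely, with a coefficient of variation of 19.0% against 6.29% in GF+PBS livers, and replicate 3 was the lowest. The means were 1362 ± 259 and 1844 ± 116 CPM (SD, n = 5 each), a log2FC of -0.44 ± 0.13 (SE).

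*Aldh1a7* (ENSMUSG00000024747, chromosome 19 from 20692953 to 20727562) is a rodent relative of *Aldh1a1* that lies beside it on the opposite strand. Its level was 225, 251, 209.9, 242 and 246 CPM in GF+MEV livers and 312, 245, 306, 260.2 and 263 CPM in GF+PBS livers, so that the groups overlapped at GF+PBS replicate 2. The difference did not pass the threshold (means 235 ± 17.04 and 277 ± 29.7 CPM, SD, n = 5 each, log2FC -0.24 ± 0.08 (SE)). The ratio of *Aldh1a1* to *Aldh1a7* ran from 4.80 to 6.81 in GF+MEV livers and from 6.29 to 7.27 in GF+PBS livers. Of the 50-base windows of the *Aldh1a1* transcript, 6.54% also occurred without any change in *Aldh1a7*. This counts exact matches only, and how alike the 2 transcripts are base by base was not measured.

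*Cyp26a1* (ENSMUSG00000024987, chromosome 19 from 37697798 to 37701536), with the DR5 match in its promoter, was the least abundant of the 10 genes, with 27 to 99 counts per library. It was at 2.81, 1.86, 2.03, 2.30 and 3.21 CPM in GF+MEV livers and at 3.22, 3.92, 2.92, 4.14 and 5.94 CPM in GF+PBS livers. GF+MEV replicate 5 lay above GF+PBS replicate 3 and next to GF+PBS replicate 1. With means of 2.44 ± 0.560 and 4.03 ± 1.18 CPM (SD, n = 5 each) it had the lowest log2 fold change of the 10, at -0.72, and also the widest standard error, at 0.22, and it did not pass the threshold.

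Levels between genes were compared as CPM per kilobase of summed exon length. In GF+PBS livers *Adh1* was highest, at 807 ± 91.1, followed by *Aldh1a1* at 373.5 ± 23.5, *Aldh1a7* at 134 ± 14.4 and *Adh4* at 125 ± 7.19 (SD, n = 5 each). *Dhrs3* was at 42.0 ± 4.94 and *Rdh11* at 30.7 ± 4.43, and at the low end were *Rdh9* at 6.52 ± 0.958, *Adh7* at 5.42 ± 0.721, *Rdh5* at 3.71 ± 0.427 and *Cyp26a1* at 2.03 ± 0.596 CPM per kilobase (SD, n = 5 each). The places of *Rdh9* and *Rdh5* are uncertain, since 92.3% and 16.3% of their 50-base windows also occur in other genes. On summed exon length the order of the means was the same in GF+MEV livers, from 649 ± 50.3 for *Adh1* to 1.23 ± 0.282 for *Cyp26a1*. The neighbours *Aldh1a7* and *Adh4*, and *Rdh9* and *Adh7*, lay within their SDs of each other in both groups, and *Adh7* and *Rdh5* did so in GF+MEV livers. With the longest transcript as the length, *Adh4* and *Aldh1a7* changed places, at 138 and 134 CPM per kilobase in GF+PBS livers, and so did *Rdh5* and *Adh7*, at 7.83 and 5.98. On that length the order differed between the groups, since in GF+MEV livers *Adh4* stayed just below *Aldh1a7*, at 113.56 and 113.66, and *Rdh5* also passed *Rdh9*, at 6.86 and 6.51.

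**Figure D2:**
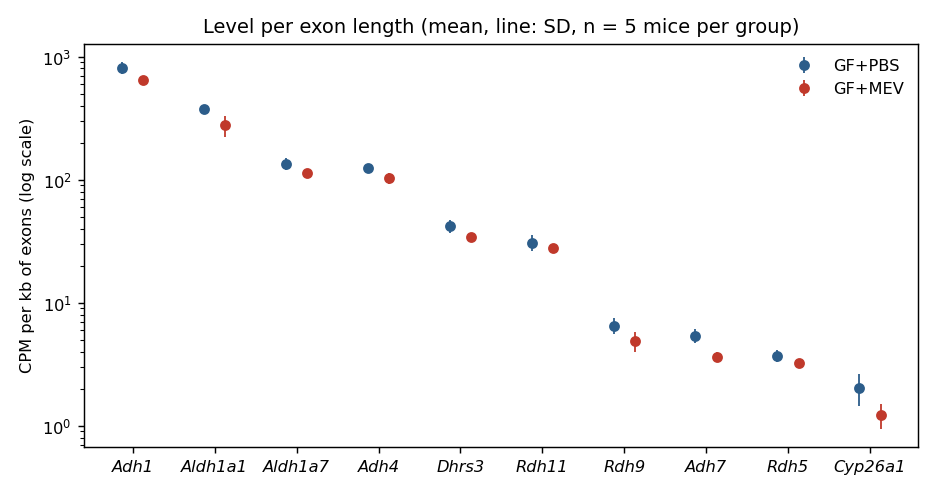
Mean level of each gene in CPM per kilobase of summed exon length, on a log axis, in GF+PBS (blue) and GF+MEV (red) livers, with the SD as a line (n = 5 mice per group). *Adh1* and *Aldh1a1* lie far above the other genes and *Cyp26a1* lies lowest, in the same order in both groups.

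Summed over the 10 genes, the level was 3026 to 3743 CPM in GF+MEV livers and 4170.2 to 4597 CPM in GF+PBS livers. *Adh1* and *Aldh1a1* made up between 81.0% and 82.5% of this sum in GF+MEV livers and between 81.7% and 84.3% in GF+PBS livers. The ratios of *Adh1* to *Adh7* and to *Adh4* varied among livers and overlapped between the groups, and they were not tested. The ratio of *Adh1* to *Adh7* was 107 ± 18.7 in GF+MEV and 88.6 ± 11.5 in GF+PBS livers, and that of *Adh1* to *Adh4* was 9.80 ± 1.37 and 10.001 ± 1.67 (SD, n = 5 each).

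How many of the 10 genes passed the threshold depended on single livers. Without GF+MEV replicate 2 or 3 only 2 passed, without GF+MEV replicate 1 or 4 or GF+PBS replicate 3 or 4 it was 3, without GF+PBS replicate 1 or 5 it was 4, without GF+MEV replicate 5 it was 5, and without GF+PBS replicate 2 it was 6. The calls lost were those of *Adh1* without GF+MEV replicate 2, 3 or 4 or GF+PBS replicate 4 or 5, of *Adh4* without GF+MEV replicate 1, 2 or 3 or GF+PBS replicate 1 or 3, of *Aldh1a1* without GF+MEV replicate 1 or GF+PBS replicate 1 or 3, and of *Dhrs3* without any 1 of GF+MEV replicates 2 to 5 or GF+PBS replicates 1, 3 and 4. Calls gained were those of *Cyp26a1* without GF+MEV replicate 5 or GF+PBS replicate 1 or 3, of *Aldh1a7* without GF+PBS replicate 2 and of *Rdh9* without GF+PBS replicate 1. With the counts of GF+PBS replicates 1 and 3 added together, and likewise those of 4 and 5, *Adh7* was the only gene of the 10 past the threshold. DESeq2's Wald test called 8 of the 10, where it called 9.89% of all genes in either direction and 4.48% as lower. *Adh7* passed under all 18 alternatives and *Rdh5* and *Rdh11* under none. In each of the 18, all 10 log2 fold changes were below 0, where 51.0% of all genes were below 0 in the fit reported here. *Aldh1a1*, for example, ranged from -0.52 to -0.35. The alternatives reuse the same livers and the genes were chosen on this contrast, so nothing is read from the constant sign or from these counts.

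**Figure D3:**
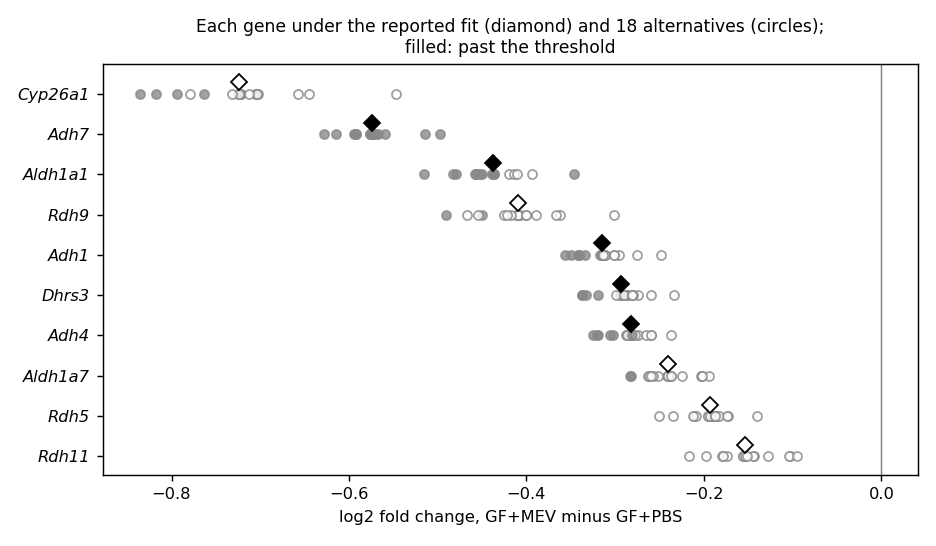
Log2 fold change of each gene, GF+MEV minus GF+PBS, in the fit reported here (diamonds) and under 18 alternatives (circles), filled where the gene passed the threshold of 0.05 on the adjusted p. All points lie below 0, and *Adh7* is filled throughout while *Rdh5* and *Rdh11* are open throughout.

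To place the 10 enzymes in their pathway, 61 other retinoid genes were listed by role, of which 42 were in the table and tested. Of these, 2 were higher in GF+MEV livers, 2 were lower and 38 were not called, and 28 had a log2 fold change below 0, with a median of -0.05. These are 4 of 42 genes, where 7.64% of all genes were called.

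Among 6 tested genes of retinoid transport and binding, 1 was higher and none was lower. This was *Fabp5* (ENSMUSG00000027533, chromosome 3 from 10012548 to 10016607), which encodes a fatty acid binding protein that also carries retinoic acid. It was at 154, 88.6, 128, 63.0 and 66.0 CPM in GF+MEV livers and at 62.7, 52.6, 52.1, 36.6 and 35.8 CPM in GF+PBS livers. GF+MEV replicate 4 and GF+PBS replicate 1 nearly met, and the log2FC was 1.06 ± 0.30 (SE; edgeR adjusted p = 0.0119). With the alike GF+PBS livers summed the adjusted p was 0.0548, in a range of 0.000120 to 0.0548 over the 18 alternatives. *Rbp4*, which encodes the carrier of retinol in plasma, was at 3697 ± 275 and 3659.6 ± 272 CPM (SD, n = 5 each), which gave a log2FC of 0.01 ± 0.07 (SE; edgeR adjusted p = 0.937).

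Of 8 genes for the making and breakdown of retinyl esters and carotenoids none was called by edgeR, 5 were below an unadjusted p of 0.05, all lower in GF+MEV, and the median log2 fold change was -0.27. The share of all genes under that unadjusted p was not counted, and it is at least the 7.64% called after adjustment. Nothing is therefore read from the unadjusted counts given here and for the lists below. DESeq2 called 2 of the 8 as lower, *Ces1d* and *Pnpla3*, and limma-voom called *Ces1d*. *Ces1d*, a carboxylesterase, came nearest among the abundant ones, at 569.9 ± 61.1 CPM in GF+MEV and 683 ± 47.6 CPM in GF+PBS livers (SD, n = 5 each, log2FC -0.26 ± 0.08 (SE), edgeR adjusted p = 0.0551). The edgeR call was gained without GF+MEV replicate 2 (adjusted p = 0.0310) or 5 (0.0410) or GF+PBS replicate 2 (0.0432), in a range of 0.0204 to 0.207 over the 18 alternatives. *Pnpla3*, which encodes a lipase of lipid droplets that acts on retinyl esters, was at a mean of only 0.475 CPM in GF+MEV and 1.41 CPM in GF+PBS livers (log2FC -1.56 ± 0.51, SE; edgeR adjusted p = 0.0513). *Lrat*, which encodes the enzyme that esterifies retinol in stellate cells, had a log2FC of -0.32 ± 0.17 (SE; edgeR adjusted p = 0.195). *Retsat*, which encodes retinol saturase, was at 317 ± 34.9 and 335 ± 13.96 CPM (SD, n = 5 each, edgeR adjusted p = 0.593).

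Of 10 other retinol and retinal oxidoreductases, 1 was lower, *Rdh16f2*, described above. Of 3 other genes for the step from retinal to retinoic acid, 1 was higher. *Aox3* (ENSMUSG00000064294, chromosome 1 from 58113130 to 58200698), which encodes a liver aldehyde oxidase, was at 894, 919.6, 1071, 958 and 848 CPM in GF+MEV livers and at 682, 783, 789, 639.7 and 681 CPM in GF+PBS livers, without overlap (log2FC 0.39 ± 0.08 (SE), edgeR adjusted p = 0.0061). *Aldh8a1*, which encodes an enzyme active on 9-cis-retinal, had a log2FC of -0.11 ± 0.03 (SE; edgeR adjusted p = 0.225). *Aldh1a2* and *Aldh1a3*, the other retinal dehydrogenase genes, were not listed in the table. Neither of the 2 other retinoic acid hydroxylases tested was called by edgeR, DESeq2 or limma-voom or had an unadjusted p under 0.05, with *Cyp26b1* at 3.19 ± 1.30 and 3.75 ± 1.70 CPM (SD, n = 5 each, log2FC -0.24 ± 0.51 (SE), edgeR adjusted p = 0.768).

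Among 7 receptor genes, *Nr2f2* (ENSMUSG00000030551, chromosome 7 from 70351944 to 70366735), which encodes the orphan receptor COUP-TFII, was lower. Its level was 26.4, 22.9, 23.6, 26.6 and 29.1 CPM in GF+MEV livers and 36.2, 35.8, 38.1, 35.3 and 33.7 CPM in GF+PBS livers, without overlap (log2FC -0.48 ± 0.07 (SE), edgeR adjusted p = 0.0007). *B130024G19Rik* overlaps it on the other strand. *Rxra*, which encodes the main retinoid X receptor of the liver, was at 644 ± 45.7 and 542 ± 63.9 CPM (SD, n = 5 each), which gave a log2FC of 0.25 ± 0.09 (SE; edgeR adjusted p = 0.0778), and it passed the threshold without GF+MEV replicate 2 (adjusted p = 0.0374) or GF+PBS replicate 2 (0.0098) and by DESeq2's Wald test (adjusted p = 0.0332). The receptor gene *Rara* had a log2FC of -0.03 ± 0.10 (SE; edgeR adjusted p = 0.907). Of 9 other genes known to respond to retinoic acid none was called by edgeR, DESeq2 or limma-voom, 1 was higher and 2 lower at an unadjusted edgeR p under 0.05, and their median log2FC was -0.09. *Rarres1* was at 99.3 ± 23.2 and 72.7 ± 22.0 CPM (SD, n = 5 each, edgeR adjusted p = 0.191), and *Tgm2*, which encodes a transglutaminase, was at 64.9 ± 7.23 and 66.2 ± 5.98 CPM (SD, n = 5 each, edgeR adjusted p = 0.902).

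**Figure D4:**
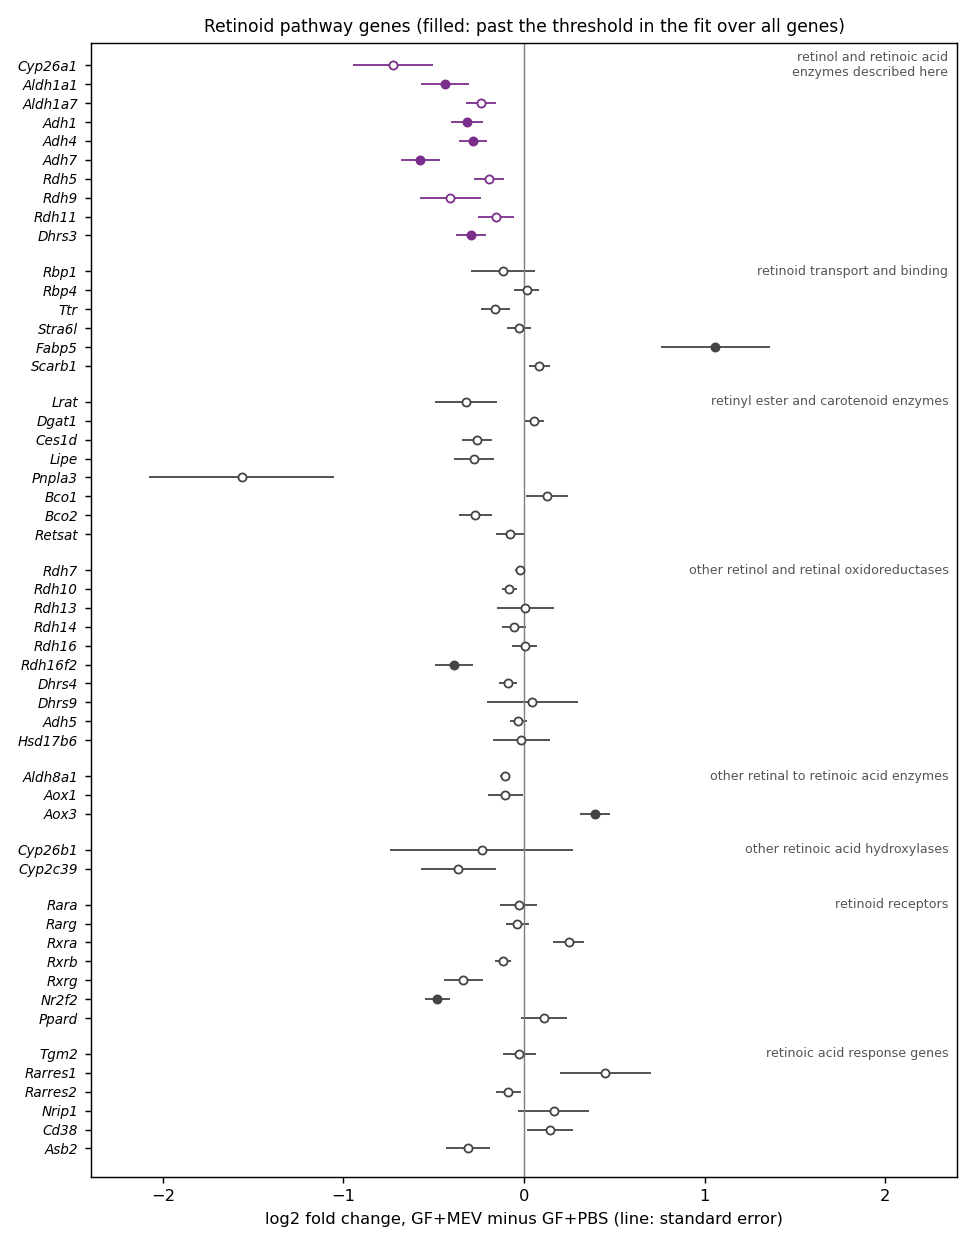
Log2 fold change, GF+MEV minus GF+PBS, with its standard error, of the 10 enzyme genes (purple) and of the 42 other retinoid genes tested (grey), by role, filled where the gene passed the threshold of 0.05 on edgeR's adjusted p. The purple points all lie below 0, while among the grey points 2 are filled on each side, *Fabp5* and *Aox3* above 0 and *Rdh16f2* and *Nr2f2* below.

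Outside the retinoid lists, 12 other aldehyde dehydrogenase genes were tested, of which 1 was lower and none was higher, with a median log2 fold change of -0.05. *Aldh3a2*, which encodes the fatty aldehyde dehydrogenase, was at 524 ± 33.7 and 614 ± 32.7 CPM (SD, n = 5 each, log2FC -0.23 ± 0.05 (SE), edgeR adjusted p = 0.0330). This call was lost under 9 of the 18 alternatives, among them without GF+MEV replicate 1, 3 or 4 or GF+PBS replicate 2, 3, 4 or 5 (adjusted p from 0.0551 to 0.0773), and the adjusted p over all 18 ranged from 0.0035 to 0.0922. *Aldh2*, the mitochondrial enzyme that clears acetaldehyde, was at 2679 ± 95.8 and 2852 ± 94.9 CPM (SD, n = 5 each, edgeR adjusted p = 0.358).

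The livers expressed the defining hepatocyte genes, 7 of 8 being in the table and none called by edgeR, DESeq2 or limma-voom (3 at an unadjusted edgeR p under 0.05, all higher), with a summed level of 90281 to 108788 CPM in GF+MEV and 93629 to 108743 CPM in GF+PBS livers. None of 12 stellate cell markers was called by any of these 3 tools, 1 was lower at an unadjusted p under 0.05, and their summed level was 317 to 439 CPM in GF+MEV and 369 to 391.9 CPM in GF+PBS livers. Of 8 Kupffer cell markers none was called by the 3 tools or had an unadjusted p under 0.05 (229 to 439 and 262 to 382 CPM), and of 8 sinusoidal endothelial markers 1 was higher and 1 lower (158 to 253 and 192 to 251 CPM). Of 3 tested cholangiocyte markers 1 was higher (28.1 to 79.3 and 23.2 to 29.7 CPM), of 4 lymphocyte markers 2 were lower (7.11 to 14.6 and 11.5 to 15.3 CPM), and of 5 skeletal muscle markers none was called by the 3 tools, with 1 lower at an unadjusted p under 0.05 (233 to 315 and 197 to 674 CPM). The part of these cell types in the levels of the 10 enzymes was not tested.

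Genes of the liver zones were counted in the same fit. Of 10 periportal hepatocyte genes 5 were higher and none lower in GF+MEV livers, where 4.12% of all genes were called higher and 3.52% lower. The list was written with earlier results of these data known, so nothing is read from this count. Of the 5 calls, 4 were kept under all 18 alternatives and that of *Cps1* was lost under 11. Among the losses were the fits without GF+MEV replicate 1, 3, 4 or 5 or GF+PBS replicate 1, 2, 3 or 4 (adjusted p from 0.0532 to 0.105). The 2 with the largest change were *Pck1*, which encodes an enzyme of gluconeogenesis, at 6921 ± 696 CPM in GF+MEV and 2122 ± 750 CPM in GF+PBS livers (SD, n = 5 each; log2FC 1.71, edgeR adjusted p = 3.9e-05), and *Sds*, which encodes serine dehydratase, at 318 ± 55.5 and 106 ± 26.3 CPM (SD, n = 5 each; log2FC 1.58, edgeR adjusted p = 9.2e-06). The other 3 encode urea cycle enzymes and changed less, with a log2FC of 0.36 ± 0.08 for *Ass1* (SE; edgeR adjusted p = 0.0091), 0.31 ± 0.07 for *Arg1* (SE; edgeR adjusted p = 0.0115) and 0.38 ± 0.13 for *Cps1* (SE; edgeR adjusted p = 0.0414). Of 9 pericentral genes none was higher and 2 were lower, *Axin2* with a log2FC of -1.01 ± 0.19 (SE, edgeR adjusted p = 0.0021) and *Tbx3* with -0.97 ± 0.22 (SE, edgeR adjusted p = 0.0034). The 3 most abundant genes of this list were not called. *Cyp2e1* had a log2FC of 0.02 ± 0.04 (SE, edgeR adjusted p = 0.887), *Cyp1a2* one of -0.20 ± 0.08 (SE, edgeR adjusted p = 0.161) and *Oat* one of 0.0015 ± 0.08 (SE, edgeR adjusted p = 0.995). The pericentral list did not move as a whole, with a median log2FC of 0.0015 and 4 of the 9 genes below 0. At an unadjusted edgeR p under 0.05, 1 of the 9 was higher and 4 were lower. In the periportal list the median was 0.22, with 2 of the 10 genes below 0, and at an unadjusted edgeR p under 0.05, 5 were higher and 1 was lower. *Axin2* and *Tbx3* each overlap a gene on the other strand. The part of the zone genes in the levels of the 10 enzymes was not tested.

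To find the genes whose spread among livers was most like that of the enzymes, log2 CPM was centred on the group means and scaled to unit variance, which removes the difference between the groups, and genes were ordered by the root mean square difference over the 10 livers among the 7487 genes that averaged 10 CPM or more. Nearest to *Aldh1a1* were *Msl3* (0.321), *Nars2* (0.323) and *Gclm* (0.324), followed by *Adh4* (0.342). Nearest to *Adh1* were *Gstt3* (0.225), *Marc2* (0.285) and *Lpcat3* (0.349). For *Adh7* they were *Itga7* (0.303), *Crebzf* (0.378) and *Smg1* (0.408), and for *Rdh9* they were *Abca8a* (0.285), *Gdf2* (0.324) and *Fgfr2* (0.329). None of these 4 enzymes had another of the 10 among its 3 nearest genes. Outside the 4, *Adh4* did, with *Aldh1a1* at rank 2 (0.342). Beside *Adh4* for *Aldh1a1*, the enzyme nearest to *Adh1* was *Rdh9*, at 1.01, and the one nearest to *Adh7* was *Rdh9*, at 1.25. These distances are a description over 10 livers that share sequencing depth within a library.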

How the data were processed

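Liver RNA of 10 germ-free mice was purified from whole tissue and made into libraries with the NEBNext Ultra RNA kit. Per the methods and the labels, the authors demultiplexed reads with bcl2fastq 2.17, aligned them to GRCm38 with STAR 2.7.3a, counted them per gene with HTSeq (version and strand setting not given in the sources used here), dropped genes below 20 counts in total, and deposited raw counts, not normalized. A further 5 columns of that table belong to no sample given in the labels and were left aside.

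Symbols, positions and exon lengths were read from GENCODE (GRCm38), and promoters from RefSeq (GRCm38.p6). The median library held 16770711 counts in GF+MEV and 17104805 in GF+PBS livers. The 12147 genes with at least 20 counts over the 10 livers were fitted with edgeR 4.0.16 in R 4.3.3 (TMM, quasi-likelihood test on the treatment group, two-sided, Benjamini-Hochberg adjustment over all genes, threshold 0.05). Standard errors were those of the difference in log2 CPM (prior count 2). The study itself used DESeq2, which is an alternative here. In simulated data with 200 genes changed by 1 on the log2 scale, edgeR recovered 190 with 17 false calls, DESeq2 1.42.0 recovered 191 with 25, limma-voom (limma 3.58.1) 187 with 12, and the blocked edgeR fit 188 with 19. The simulated livers were independent and their changes larger than those of the 10 enzymes, whose log2FC ran from -0.72 to -0.15. The simulation therefore cannot say how often changes of the enzymes' size, or among alike livers, would be found.

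The 10 enzymes and all gene lists were chosen with earlier results of these data known. The text names all 10 enzymes, from each pathway list the genes past the threshold (all if 8 or fewer) and examples among the 3 most abundant genes, and the nearest genes of the 4 enzymes with the largest change among those at or above 10 CPM. *Lrat*, *Pnpla3*, *Rara*, *Rdh16*, the genes on the same chromosomal stretch as a named enzyme and the rank of *Aldh1a1* for *Adh4* were added after their values were seen. A window of 50 bases of the longest transcript counted as shared when it occurred in a transcript of another gene. Alternatives were DESeq2, limma-voom, other normalizations and filters, the replicate number of the labels as a block, alike GF+PBS livers summed, and each liver left out. Same-numbered livers were not taken as pairs. Quantitative PCR and other mice of the study were not analysed here.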

Additional observations from a re-analysis of the deposited data

Results flagged for a closer look

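In 92 groups of 5 livers, for the 10 enzymes and the other retinoid, aldehyde dehydrogenase and zone genes chosen by the naming rule, the gap of the most extreme liver to its neighbour was set against Dixon's 95% limit of 0.71 of the range. 5 livers stood apart, where 4.6 would by chance alone. Among the enzymes this was *Adh7* in GF+MEV replicate 1, at 11.4 CPM beside 13.8 to 14.6 CPM in the other 4 GF+MEV livers. *Rxra* was at 652 CPM in GF+PBS replicate 2, beside 487 to 534 CPM elsewhere in GF+PBS. *Rxrb* was at 32.8 CPM in GF+MEV replicate 5, beside 35.3 to 35.8 CPM. *Tbx3* was at 44.7 CPM in GF+PBS replicate 2, beside 26.7 to 28.2 CPM. *Sds*, a periportal gene that encodes serine dehydratase, was at 414 CPM in GF+MEV replicate 3, beside 276 to 316 CPM.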

How the results depend on the processing

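In the fit reported here 928 genes passed the threshold, 500 higher and 428 lower in GF+MEV, and of these 5 were among the 10 enzymes and 4 among the other retinoid genes. Leaving out each liver gave 696 to 926 genes in all, 388 to 561 higher and 304 to 397 lower, 2 to 6 of the enzymes and 4 to 6 of the other retinoid genes. With the alike GF+PBS livers summed it was 561 in all, 209 lower, 1 enzyme and 2 other retinoid genes, a setting that leaves fewer samples. DESeq2 called 8 enzymes and 7 other retinoid genes, upper-quartile normalization 8 enzymes, and the fit with the replicate block 3 enzymes (*Adh7*, *Dhrs3* and *Cyp26a1*) and 792 genes in all. The labels give both groups the numbers 1 to 5, and no source used here says what the numbers stand for. The correlations of same-numbered livers were 0.166, -0.084, -0.052, -0.188 and 0.059, and 2 of the 5 correlated best with their own. These 5 values cannot show whether same-numbered livers belong together. Upper-quartile normalization called 428 genes higher and 612 lower, so that 41.2% of calls were higher against 53.9% in the fit reported here, and moved the median log2 fold change of all genes to -0.046. *Cyp26a1* passed the threshold under 8 of 18 alternatives, *Aldh1a7* and *Rdh9* under 3 each, while *Dhrs3* lost it under 8, *Adh1* and *Adh4* under 7 each and *Aldh1a1* under 5. Beyond the settings' own construction the cause was not tested. *Cyp26a1* had at most 99 counts per library, and *Rdh9* shares most of its sequence windows with other genes; how far either limits the calls was not tested.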
